A study of Mus musculus with 24 samples.

Results

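The semaphorins are a family of secreted and membrane-bound guidance cues, the plexins are their main cell-surface receptors, and the neuropilins are co-receptors that let most secreted semaphorins signal through plexins. The 31 genes described here are the protein-coding genes on chromosomes 1 to 19 or X whose names begin with Sema3 to Sema7 or Plxn, together with Nrp1 and Nrp2. They were picked by name and not by their levels, out of 45594 genes in the table, and they comprise 20 semaphorins, 9 plexins and 2 neuropilins. Of 34 genes whose names begin this way, 3 were left out because they are annotated as antisense RNAs at Plxna4 (Plxna4os1, Plxna4os2 and Plxna4os3).

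RNA was sequenced from the retina of C57/Bl6N mice at 12 ages, at embryonic days 11, 12, 14 and 16 (E11 to E16) and at postnatal days 0, 2, 4, 6, 10, 14, 21 and 28 (P0 to P28), with 2 libraries at each age. Directional libraries of PolyA RNA took 100 ng of input at the first 2 ages and 1 µg at the other 10, so input changed between E12 and E14. Across that step, age and input cannot be told apart. The labels do not say whether the libraries of an age came from separate animals, and the p-values below measure only the spread between these libraries. In whole retina, fewer cells of a type and less RNA per cell cannot be told apart.

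Background on these genes comes from work in mice. In the inner plexiform layer, the synaptic layer between amacrine, bipolar and ganglion cells, transmembrane Sema6A acts with the receptors plexin-A2 and plexin-A4 to sort neurites into sublayers, while Sema5A and Sema5B act through plexin-A1 and plexin-A3 to keep neurites of inner retinal neurons out of the outer retina. Secreted class 3 semaphorins, Sema3E excepted, bind neuropilin-1 or neuropilin-2 in complex with class A plexins. Sema3E binds plexin-D1 directly and steers growing retinal vessels, and Sema6D with plexin-A1 and Nrcam guides ganglion cell axons at the optic chiasm.

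Library totals lay between 24567532 and 35898879 estimated counts. Levels of lens crystallins and other lens genes, 17 markers in all, were uneven among the early libraries. They summed to 3520 CPM (counts scaled to library size) in E11 replicate 1 against 33.9 CPM in replicate 2, to 3480 CPM in E12 replicate 2 against 265 CPM in replicate 1, and to 3050 CPM in E14 replicate 2 against 85.8 CPM in replicate 1. Sums of 11 mesenchyme markers were 202 to 239 CPM at E11, 109 to 166 CPM at E12, 31.6 to 40 CPM at E14 and 12.5 to 13.9 CPM at E16. Within the E11 sums, markers differed in both directions between replicates 1 and 2. Twist1 had 4.73 and 13.7 CPM and Foxc2 1.28 and 9.91 CPM, while Lum had 29.6 and 9.23 CPM and Col1a1 18.5 and 6.11 CPM. Sums of 10 red cell markers were 3910 CPM in E11 replicate 1 and 8660 CPM in replicate 2.

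Promoter sequences are shown for the 3 members that rose most between E16 and P6, namely Sema7a, Plxna2 and Sema5b. Each covers 250 bases before and 50 bases after the transcription start in RefSeq on GRCm38.p6, written from 5′ to 3′. Capitals mark matches on either strand to the E-box letters CANNTG or to TAATCC, the letters bound by photoreceptor homeodomain factors.
Sema7a, chr9:57939862-57940161, plus strand: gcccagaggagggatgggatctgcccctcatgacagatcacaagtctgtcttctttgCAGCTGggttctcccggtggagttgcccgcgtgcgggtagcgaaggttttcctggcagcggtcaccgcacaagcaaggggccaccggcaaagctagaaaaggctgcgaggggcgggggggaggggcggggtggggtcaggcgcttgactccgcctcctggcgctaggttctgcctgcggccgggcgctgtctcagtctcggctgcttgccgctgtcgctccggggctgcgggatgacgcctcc
Plxna2, chr1:194619579-194619878, plus strand: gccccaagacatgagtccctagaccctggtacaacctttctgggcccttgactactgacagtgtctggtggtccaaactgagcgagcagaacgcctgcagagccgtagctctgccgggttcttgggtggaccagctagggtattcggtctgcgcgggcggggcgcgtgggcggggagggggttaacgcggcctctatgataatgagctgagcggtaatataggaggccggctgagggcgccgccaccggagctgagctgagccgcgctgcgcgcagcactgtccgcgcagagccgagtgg
Sema5b, chr16:35541112-35541411, plus strand: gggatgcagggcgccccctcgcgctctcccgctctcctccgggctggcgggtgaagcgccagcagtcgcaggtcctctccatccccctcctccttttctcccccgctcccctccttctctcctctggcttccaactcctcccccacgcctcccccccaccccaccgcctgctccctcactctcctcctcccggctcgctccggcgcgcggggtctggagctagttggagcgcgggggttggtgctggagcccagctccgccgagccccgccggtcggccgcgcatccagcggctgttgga
The Sema7a window holds 1 CANNTG match, CAGCTG, and the Plxna2 and Sema5b windows hold 0 matches to either motif. RefSeq windows were found for 26 of the 31 members, with 37 windows in all. CANNTG was present in 21 of these 37 windows, against 72.3% of 32851 mouse promoters. TAATCC was in 0 of the 37, against 7.06% of all promoters. The matches are letters only and say nothing of binding.

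Every one of the 31 genes passed the filter on low counts. Levels within a gene are given as CPM scaled by the trimmed mean of M values (TMM), and a gene was called across the course when its adjusted p over all stages was under 0.05 and its fitted stage means spanned at least 2-fold. By this rule 30 of 31 members were called, against 77.3% of 21858 genes tested (edgeR quasi-likelihood F test, Benjamini-Hochberg). The exception was Plxnb3, a plexin known from oligodendrocytes, with an adjusted p of 0.137 and a highest stage mean of 0.46 CPM. The highest stage mean was 2.01 to 23.8 times the lowest among the members, with a median of 5.99. The median was 4.18 over 20247 tested genes with counts in every stage.

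**Figure D1:**
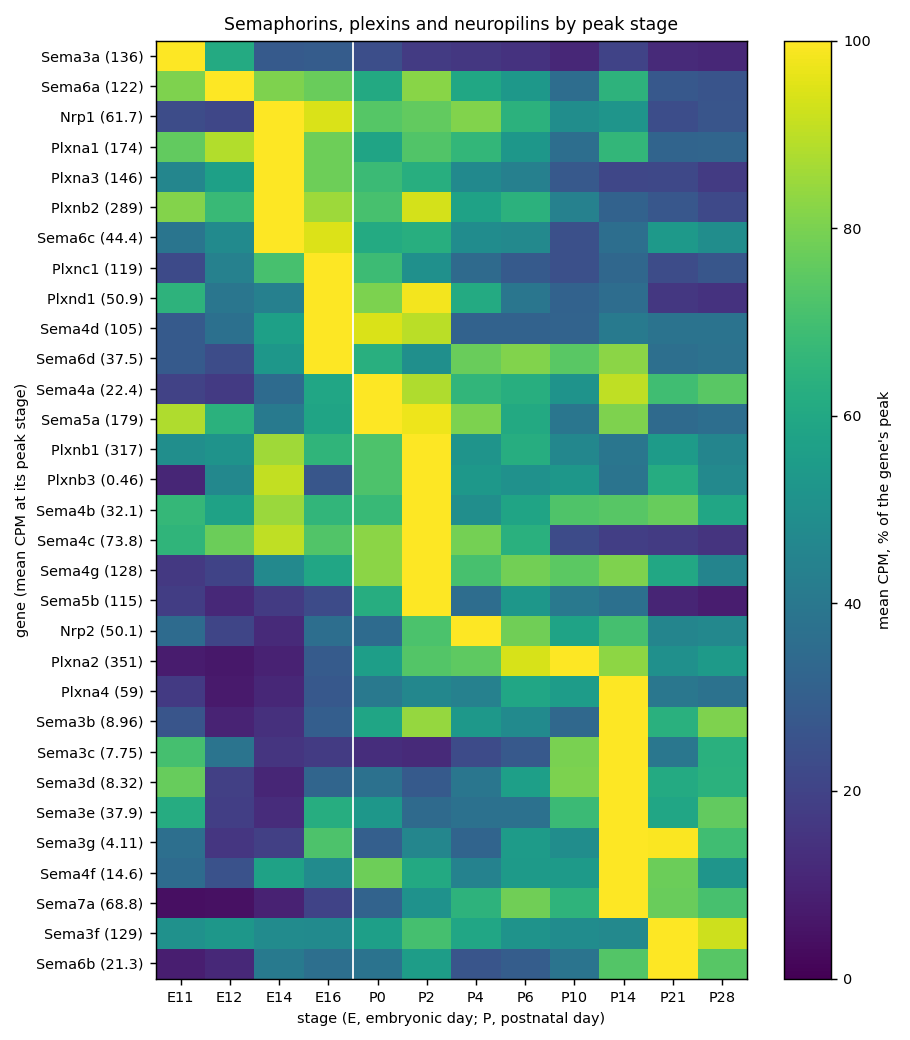
Mean TMM-scaled CPM of each member at 12 stages, as a percentage of that gene's own highest stage mean, with the peak mean in brackets after the gene name and a white line between E16 and P0. Rows are ordered by peak stage, from Sema3a at E11 to Sema3f and Sema6b at P21, and 8 genes share a peak at P14.

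Peak stages were spread over the whole course. The stage with the highest mean was embryonic for 11 members, from P0 to P6 for 9 and from P10 to P28 for 11. Over all genes tested, the embryonic and the P10 to P28 blocks held 38.6% and 40.1% of peaks, and the P0 to P6 block held 4644 of 21858 genes. Of the 9 plexins, 5 peaked in the embryo (Plxna1, Plxna3 and Plxnb2 at E14, Plxnc1 and Plxnd1 at E16), 2 from P0 to P6 and 2 later. Of the 20 semaphorins, 5 peaked in the embryo, 6 from P0 to P6 and 9 later, which was not tested against the plexins. In 18 of 31 members both libraries of the peak stage lay above every other library, against 42.2% of all genes.

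The stages with most member peaks were P14 with 8 (Plxna4, Sema3b, Sema3c, Sema3d, Sema3e, Sema3g, Sema4f and Sema7a), P2 with 6 (Plxnb1, Plxnb3, Sema4b, Sema4c, Sema4g and Sema5b) and E14 with 5 (Nrp1, Plxna1, Plxna3, Plxnb2 and Sema6c). Over all genes tested, P14, P2 and E14 held 9.54%, 7.43% and 5.68% of peaks. At E11, 1 member peaked, against 19.9% of all genes. No member peaked at P6, where 3.3% of all genes did, or at P28, the latest age, where 12.8% did. By P28, 19 members were under 50% of their own peak and 6 were under 25%, and no share over all genes is given beside these counts. Some peaks are shared by neighbouring or distant ages: Plxnd1 had 53.5 and 46.6 CPM at P2 and 56 and 45.7 CPM at E16, Sema5a had 174 and 176 CPM at P2 and 190 and 169 CPM at P0, and Sema3g had 4.19 and 3.98 CPM at P21 and 4.28 and 3.94 CPM at P14.

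Class A plexins, the signalling receptors of class 3, class 5 and class 6 semaphorins, shifted in make-up, with Plxna2 taking a larger share and Plxna3 a smaller one after E14. Levels between genes are compared here in TPM, a measure scaled by length, computed from the estimated counts per transcript over its full annotated length. At P10 Plxna2 averaged 85.0 ± 8.03 TPM, Plxna1 33.9 ± 11.0 TPM and Plxna3 30.5 ± 8.18 TPM (SD, n = 2). At E14 Plxna2 averaged 6.74 ± 0.151 TPM, Plxna1 81.1 ± 11.3 TPM and Plxna3 92.3 ± 6.66 TPM. As a share of the summed TPM of the 4 class A genes, Plxna2 held 3.75% ± 0.454 at E14, 13.3% ± 1.38 at E16, 26.5% ± 0.415 at P0, 44.6% ± 1.05 at P6, 55.3% ± 4.84 at P10 and 47.1% ± 1.38 at P28 (SD, n = 2). Plxna1 held 44.7% ± 1.84 at E14, 30.9% ± 1.45 at P0, 21.6% ± 3.18 at P10, 37.9% ± 2.16 at P14 and 30.0% ± 0.241 at P28, so that at P14 it was close to Plxna2, which held 42.5% ± 0.0629. Plxna3 held 51.0% ± 1.37, 45.6% ± 4.0, 40.3% ± 1.99, 25.7% ± 0.851, 19.5% ± 1.74 and 19.1% ± 1.92 of the sum at E14, E16, P0, P6, P10 and P28. The summed TPM of the class was 88.7 at E11, 181 at E14, 195 at P2, 164 at P14 and 94.8 at P28.

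**Figure D2:**
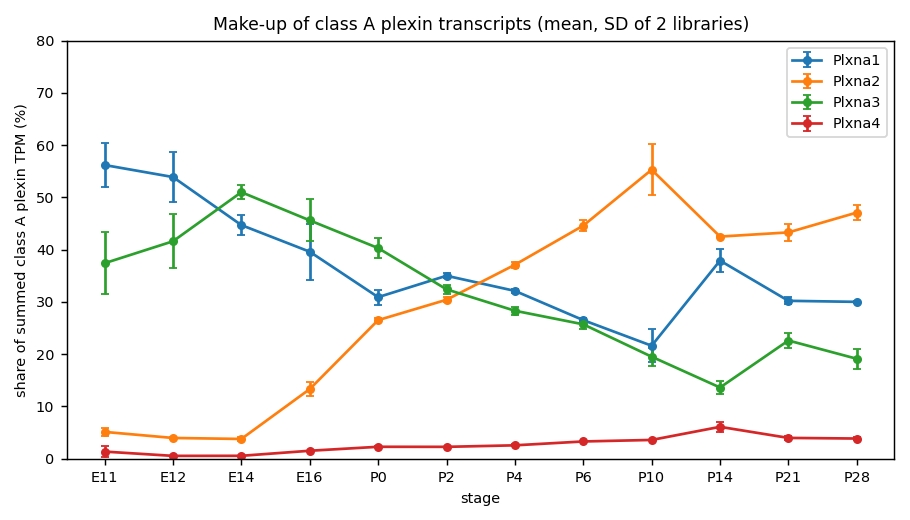
Share of the summed TPM of Plxna1, Plxna2, Plxna3 and Plxna4 held by each gene at 12 stages, as the mean and SD of 2 libraries. Plxna2 goes up to 55.3% at P10 while Plxna3 comes down from 51.0% at E14, and Plxna4 stays under 7% throughout.

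Plxna2 (chromosome 1, 194618218 to 194816869, GRCm38) rose in the embryo and again around birth. Its libraries had 363 and 340 CPM at P10 and 22.4 and 23.1 CPM at E12, its highest and lowest stages, which lay far apart. It had 115 and 87 CPM at E16 against 24.9 and 29.2 CPM at E11, a log2 change of 1.91 ± 0.139 (SE; adjusted p = 5.73e-09), and 348 and 313 CPM at P6 against the same E16 libraries, a log2 change of 1.71 ± 0.135 (adjusted p = 1.59e-08, edgeR quasi-likelihood test with Benjamini-Hochberg adjustment for both). The P14 libraries, with 327 and 257 CPM, lay above those of P21, with 164 and 188 CPM.

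Plxna4, the other receptor that pairs with Sema6A in the inner plexiform layer, was the least abundant of the class per length, with 9.83 ± 0.377 TPM at its P14 peak. Its libraries had 35.2 and 30.2 CPM at P10, 59.6 and 58.4 CPM at P14 and 20.6 and 26.2 CPM at P21, with no overlap between P14 and its neighbours. Plxna4 was higher at P6 than at E16 by 1.10 ± 0.297 and lower at P28 than at P14 by a log2 change of -1.41 ± 0.295 (SE; edgeR adjusted p = 0.0055 and 0.00213). The E11 libraries disagreed, with 4.86 CPM in replicate 1 and 15.2 CPM in replicate 2, and without replicate 2 the E16 against E11 change of 0.70 became 1.74, past the threshold. The sources used here do not say whether counting kept reads of the antisense genes at this locus apart by strand.

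Plxna3 and Plxna1 moved down after E14. Plxna3 (X chromosome) had 23.6 and 26.9 CPM at P28 and 141 and 151 CPM at E14, with no overlap, and it was lower at P14 than at P6 by a log2 change of -1.03 ± 0.170 (adjusted p = 0.000131). That call sits at the threshold, with a change of -0.98 when P14 replicate 2 is left out. Plxna1 had 57.8 and 55.2 CPM at P28, against 136 and 93.8 CPM at P14, a log2 change of -1.03 ± 0.175 (edgeR adjusted p = 0.0004), which was -0.74 without the higher P14 library.

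The ligands of these receptors took several courses. Sema6a, the transmembrane ligand of plexin-A2 and plexin-A4, was high in the embryo with 118 and 126 CPM at its E12 peak, and held 83 and 74.9 CPM at P14 before lying at 29.5 and 33.4 CPM at P28. The P28 against P14 change was -1.33 ± 0.130 on the log2 scale (edgeR adjusted p = 2.19e-06). So Sema6a and its receptors Plxna2 and Plxna4 were all present at P14, at 32.2 ± 2.6, 69.8 ± 13.1 and 9.83 ± 0.377 TPM (SD, n = 2), while their peaks lay at E12, P10 and P14.

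Sema6a also changed in its transcripts. Of its estimated counts, the protein-coding transcript Sema6a-004 held 28.6% to 34.5% at E11, 32.4% to 32.9% at E12, 24.8% to 29.4% at E14 and 4.01% to 5.15% at P4. Another, Sema6a-003, held 0.955% to 7.49% at E11, 1.28% to 2.17% at E12, 12.6% to 12.7% at E14 and 25.5% to 25.8% at P4. The longest of the 3, Sema6a-001, stayed at 35.6% to 64.9% in all libraries. These transcripts overlap, so the shares are estimates, and no test was run on them. In P10, where the 2 libraries gave 12.5% and 0.000649% for Sema6a-004, they disagreed widely.

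**Figure D3:**
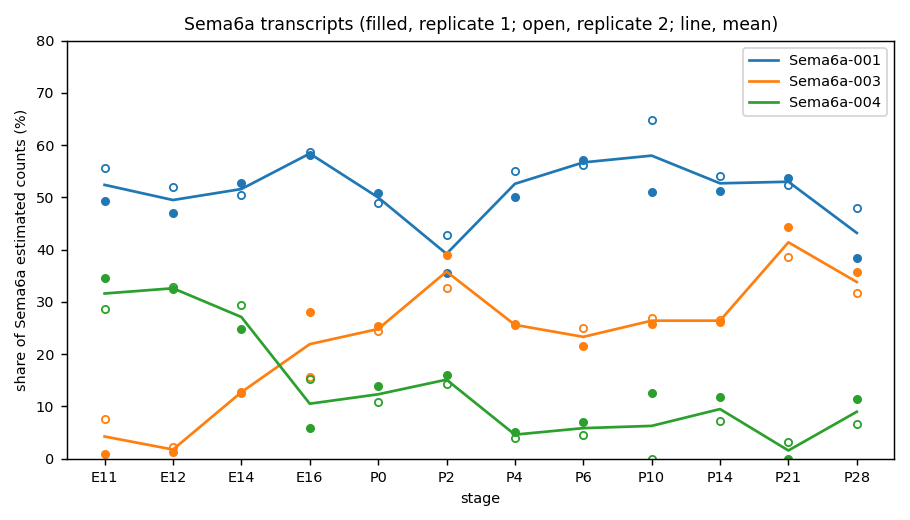
Share of the estimated Sema6a counts held by 3 of its transcripts in each of 24 libraries, with a line through the stage means. Sema6a-004 lies above Sema6a-003 at E11, E12 and E14 and below it at every stage from E16 on.

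Sema5a and Sema5b, transmembrane ligands of plexin-A1 and plexin-A3, were both high just after birth and low at P28. Sema5b had the sharper course, with 28.8 and 23.6 CPM at E16, 115 and 116 CPM at P2 and 9.21 and 8.82 CPM at P28. It rose by 1.23 ± 0.209 between E16 and P6 and changed by -2.25 ± 0.221 between P14 and P28 on the log2 scale, the largest fall among the members in that window (edgeR adjusted p = 0.000112 and 2.22e-06). The P0 libraries disagreed, with 91 and 53 CPM, and the P4 libraries, at 42.5 and 39.9 CPM, lay below those of P2 and of P6.

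Sema5a had 3 separate highs, with 141 and 175 CPM at E11, 190 and 169 CPM at P0 and 143 and 147 CPM at P14, and lows of 70.9 and 75.3 CPM at E14 and 77.7 and 63.4 CPM at P10. It fell by 1.16 between P14 and P28 on the log2 scale (edgeR adjusted p = 1.22e-05). Per length, Sema5b made up 40.8% ± 2.09 of the pair's TPM at P28, against 73.0% ± 0.172 at P2. Their receptors Plxna1 and Plxna3 peaked at E14, before the highest means of Sema5a at P0 and of Sema5b at P2. Sema5a was already at 88.2% of its peak mean at E11, and had a low at E14.

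Among the other class 6 genes, Sema6d had 39.4 and 35.6 CPM at E16 against a mean of 10.7 ± 0.849 CPM at E11 (SD, n = 2), a log2 change of 1.81 ± 0.113 (edgeR adjusted p = 7.93e-10). Its partners at the optic chiasm were present at E16 too, with Plxna1 at 128 and 143 CPM and Nrcam, a cell adhesion molecule, at 237 and 262 CPM. Nrcam, not a member, rose by 3.04 ± 0.213 over the same window, and Plxna1 changed by 0.04 ± 0.172 (edgeR adjusted p = 3.54e-09 and 0.888). Sums of 14 ganglion cell markers moved alongside, at 1950 to 1990 CPM at E16 against 85.1 to 93.4 CPM at E11, with 14 of 14 markers called higher, and their part in the Sema6d change was not tested. Sema6d fell by 1.14 between P14 and P28. Sema6b, whose product is another plexin-A ligand, had 20.3 and 22.4 CPM at its P21 peak, against 1.15 and 2.37 CPM at E11. Sema6c had its highest libraries, 43.5 and 45.2 CPM, at E14, and its P21 mean of 23.9 ± 0.969 CPM, against 17.3 ± 0.301 CPM at E11, was 53.8% of its peak mean (SD, n = 2).

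**Figure D4:**
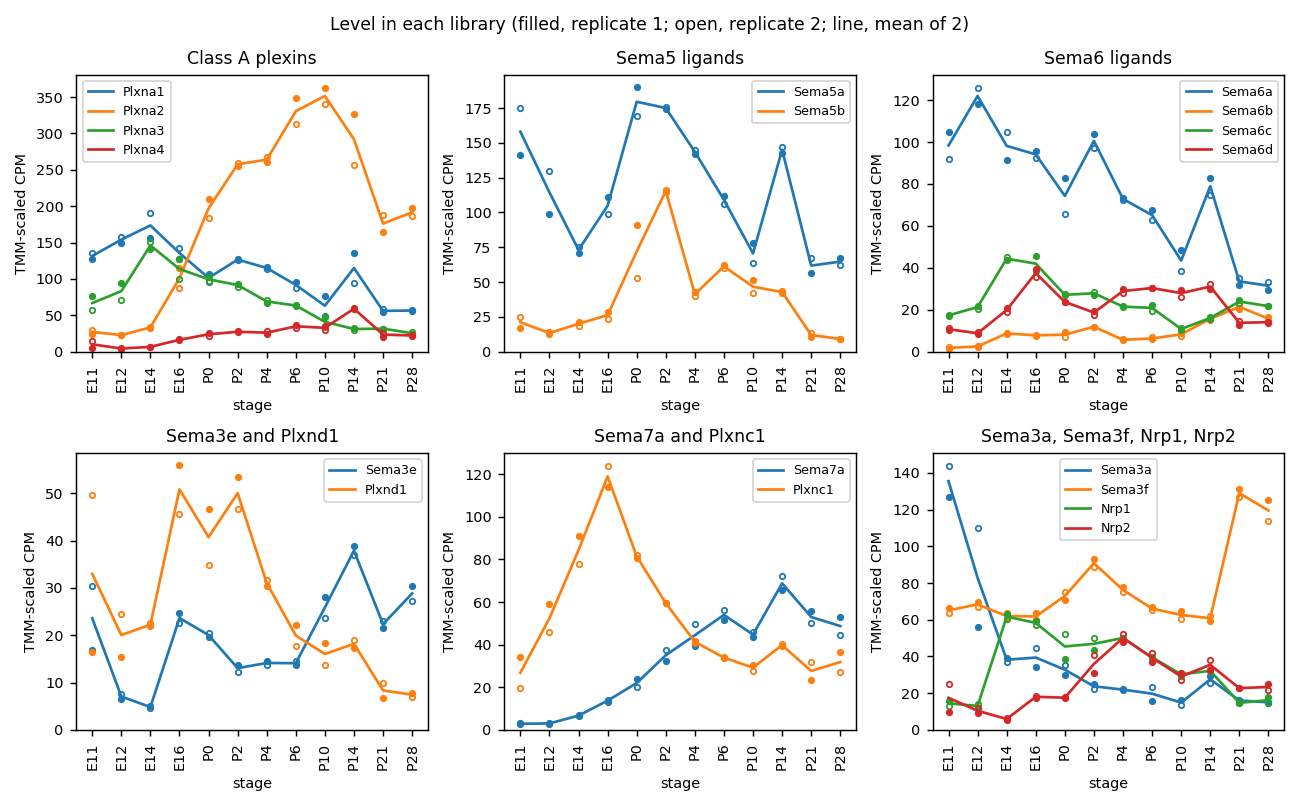
TMM-scaled CPM in each of 24 libraries for 6 sets of ligands and receptors, with filled points for replicate 1, open points for replicate 2 and lines through the means of 2 libraries. Plxna2 climbs to 351 CPM at P10 as Plxna3 declines, Sema7a climbs as Plxnc1 declines after E16, and Sema3f steps up at P21.

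The class 3 ligands split into Sema3a, which was embryonic, Sema3f, which was highest in the mature retina, and 5 others whose highest mean was at P14. Of these peaks, that of Sema3b moved to P2 without P14 replicate 1 or with summed transcript estimates, that of Sema3c to E11 without E11 replicate 1, and that of Sema3g to P21 without P14 replicate 1 or P21 replicate 2. Sema3a, a repellent that acts through neuropilin-1, had 34.4 and 44.4 CPM at E16 and 127 and 144 CPM at E11, a log2 change of -1.79 ± 0.236 (edgeR adjusted p = 8.18e-06). All E11 libraries lay above all E16 libraries. Sema3c and Sema3d were lower over the same window by log2 changes of -2.03 ± 0.448 and -1.22 ± 0.360 (edgeR adjusted p = 0.00124 and 0.0101). E11 replicate 2 carried both, with 7.96 CPM of Sema3c against 2.96 CPM in replicate 1, and without it neither passed (changes of -1.15 and -0.90, adjusted p = 0.0519 and 0.103). Sema3d also missed the threshold when either E16 library was left out (adjusted p = 0.0639 and 0.0501).

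From E11 to E16, 11 of 11 mesenchyme and 12 of 17 lens markers were called lower, and their part in the class 3 falls was not tested. Without E11 replicate 1, the library with more lens RNA, Sema3a, Sema3c and Sema3d changed by -1.87, -2.58 and -1.48. At E12, where replicate 2 had more lens RNA, Sema3a had 110 CPM in replicate 2 and 55.8 CPM in replicate 1. Sema3c had 2.68 and 3.26 CPM, and Sema3d 2.44 and 0.697 CPM, in the same order.

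Sema3f, which acts mainly through neuropilin-2, was the most abundant semaphorin per length from E11 on, at 78.0 ± 4.95 TPM at E11, 146 ± 3.98 TPM at P2, 112 ± 0.875 TPM at P14 and 208 ± 16.5 TPM at P28 (SD, n = 2). Its libraries had 131 and 127 CPM at P21, against 59.4 and 62.3 CPM at P14, and this step between neighbouring stages was a log2 change of 1.08 ± 0.0785 (edgeR adjusted p = 8.92e-08). With transcript estimates summed to genes the change was 0.79, under the 2-fold threshold. The Sema3f share of class 3 TPM was 57.3% ± 3.53 at E11, 73.3% ± 1.99 at P14 and 88.2% ± 1.08 at P28.

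Sema3e, the plexin-D1 ligand, and Plxnd1 had their highest means at different stages, P14 and E16, but both went up from E14 to E16. Sema3e had 5.11 and 4.54 CPM at E14 and 24.8 and 22.5 CPM at E16, and Plxnd1 had 22 and 22.5 CPM at E14. At E11 the libraries disagreed, with 16.8 and 30.4 CPM of Sema3e and 16.4 and 49.6 CPM of Plxnd1. Sema3e had 38.9 and 36.9 CPM at P14, against 13.7 and 14.5 CPM at P6, a log2 change of 1.43 ± 0.191 (edgeR adjusted p = 1.67e-05). Plxnd1 had 22.2 and 17.7 CPM at P6, against 56 and 45.7 CPM at E16, a change of -1.35 ± 0.349, and 7.84 and 7.05 CPM at P28, against 17.3 and 19.1 CPM at P14, a change of -1.29 ± 0.364 (edgeR adjusted p = 0.00406 and 0.0151). The later fall did not pass without P14 replicate 2 (adjusted p = 0.0793), P28 replicate 1 (0.0634) or P28 replicate 2 (0.105). Endothelial markers, 11 in all, summed to 308 to 324 CPM at E16, 626 to 650 CPM at P2, 319 to 325 CPM at P6, 436 to 443 CPM at P14 and 178 to 189 CPM at P28. Kdr, 1 of the 11, made up most of the sum at each of these ages. It averaged 276 ± 18.2, 609 ± 17.5, 249 ± 6.06, 309 ± 8.34 and 102 ± 2.46 CPM in the same order (SD, n = 2), so the P2 high of the sum was mostly Kdr. Of the 11, 4 were called higher and 0 lower at P6 than at E16, and 6 were called lower at P28 than at P14. Their part in the Plxnd1 course was not tested.

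The neuropilins took different courses. Nrp1, the co-receptor for Sema3A and for Vegfa, had 59.4 and 57.2 CPM at E16 against 15.8 and 13.2 CPM at E11, a log2 change of 2.01 ± 0.141 (edgeR adjusted p = 3.48e-09), and most of it lay in the step to E14 (61.7 ± 2.1 CPM) against E12 (13.1 ± 1.6 CPM). RNA input changed at that step too, so age and input cannot be told apart there. Nrp2 had its highest level at P4, with 47.9 and 52.3 CPM, and its lowest at E14, with 5.27 and 6.6 CPM. It rose by 1.12 ± 0.274 between E16 and P6 (edgeR adjusted p = 0.00268). Nrp1 thus held 91.8% ± 1.48 of neuropilin TPM at E14, 52.4% ± 1.65 at P4 and 41.4% ± 1.58 at P28. Vegfa, the vascular growth factor, averaged 64.7 ± 10.9 CPM at E11, 146 ± 24.2 CPM at E16, 155 ± 14.7 CPM at P14 and 138 ± 18.9 CPM at P28, and its receptor gene Kdr averaged 94.2 ± 4.24, 276 ± 18.2, 309 ± 8.34 and 102 ± 2.46 CPM (SD, n = 2).

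Sema7a, a membrane-anchored ligand of plexin-C1 and of integrins, had the widest range of all members, 23.8-fold. Its stage means ran 2.89 CPM at E11, 13.7 CPM at E16, 54.0 CPM at P6 and 68.8 CPM at P14, and its libraries had 53 and 44.5 CPM at P28. It had the largest rise among the members both at E16 against E11 (log2 change 2.25 ± 0.152) and at P6 against E16 (1.97 ± 0.135; edgeR adjusted p = 2.25e-09 and 2.42e-09). Its receptor Plxnc1 crossed it in the other direction. Plxnc1 had 34.1 and 19.7 CPM at E11, 114 and 124 CPM at E16 and 33.6 and 34.3 CPM at P6, for changes of 2.14 ± 0.207 and -1.81 ± 0.204 (edgeR adjusted p = 2.01e-07 and 1.2e-06). At P14 Sema7a had 45.4 ± 1.81 TPM and Plxnc1 12.3 ± 0.161 TPM, and at E16 Sema7a had 8.08 ± 0.0791 TPM and Plxnc1 34.4 ± 0.54 TPM (SD, n = 2).

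Sema4d, an immune and neural class 4 ligand, was high from E16 to P2, and its receptor Plxnb1 had its highest means at P2 and E14, at 317 ± 11.3 and 271 ± 20.2 CPM, with 208 ± 39 CPM at E16 (SD, n = 2). With summed transcript estimates the Plxnb1 peak was E14. Sema4d had 34.5 and 31.6 CPM at P4, against 92.6 and 94.7 CPM at P2, so that most of its fall between E16 and P6 (-1.68 ± 0.126, edgeR adjusted p = 8.14e-09) lay between these neighbouring stages. Plxnb1 had 151 and 176 CPM at P4, against 325 and 309 CPM at P2, and no window called it, with changes from -0.67 to 0.41. Ganglion cell marker sums were 1950 to 1990 CPM at E16, 909 to 920 CPM at P2 and 977 to 1050 CPM at P4, and their part in the Sema4d and Plxnc1 courses was not tested.

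Plxnb2, a widely expressed receptor of class 4 semaphorins, had the highest mean TPM of the plexins at E14, and Plxnb1 passed it later. Plxnb2 held 60.0% ± 0.133 of class B plexin TPM at E14, 50.8% ± 3.6 at P14 and 38.1% ± 2.08 at P28 (SD, n = 2), nearly all of the rest being Plxnb1. The Plxnb2 fall between P6 and P14 was a log2 change of -1.03 ± 0.111 (edgeR adjusted p = 1.7e-06), but -0.60 with summed transcript estimates. Sema4c, whose product binds plexin-B2, fell with it, with 15.2 and 12 CPM at P14 against 46.4 and 47.4 CPM at P6 (-1.79 ± 0.148, edgeR adjusted p = 8.55e-08). Sema4g rose early, with 87.7 and 64.2 CPM at E16 against 21.8 and 21 CPM at E11 (1.83 ± 0.156, edgeR adjusted p = 4.51e-08), and was highest at P2 with 131 and 125 CPM. Sema4c and Plxnb2 were not called between E11 and E16, with log2 changes of 0.16 and 0.06. Sema4g changed by 0.03 between P6 and P14.

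By window, a gene was called when its adjusted p was under 0.05 and its log2 change at least 1 in size. Between E11 and E16, 10 members rose and 3 fell, against 13.6% and 9.11% of genes tested, with a median log2 change of 0.46. Age and RNA input cannot be told apart in this window. Besides those given, Sema6b, Sema4d, Sema4a and Sema6c rose, by 2.14 ± 0.238, 1.82 ± 0.127, 1.58 ± 0.219 and 1.28 ± 0.108. Without E11 replicate 1, the library with more lens RNA, the counts were again 10 and 3, and without E11 replicate 2 they were 13 and 1. The median over all genes lay from -0.01 to 0.03 in the 4 windows. Between E16 and P6, 5 members rose and 4 fell, against 13.2% and 11.7% of genes, with a median of -0.17. The fourth to fall was Sema6c, by 1.01, which lay at the fold threshold: its change was -0.99, and 3 members fell, with RLE size factors, library size alone, the 1 CPM filter, DESeq2 or a fit of the 2 stages. The shares of members called were 13 of 31 and 9 of 31, against 22.7% and 24.9% of genes called in either direction.

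Between P6 and P14, 4 members rose (Sema3b, Sema3c, Sema3e and Sema6b) and 3 fell (Plxna3, Plxnb2 and Sema4c), against 15.7% of genes called in either direction (2215 higher, and 1206 or 5.52% lower), with a median of 0.28. Sema3c had 8.24 and 7.26 CPM at P14 against 1.68 and 2.62 CPM at P6 (1.85 ± 0.434), Sema6b averaged 15.6 ± 0.648 CPM against 6.28 ± 0.658 CPM (1.31 ± 0.216) and Sema3b changed by 1.06 ± 0.393 (edgeR adjusted p = 0.00271, 0.000126 and 0.0415). The Sema3b call was lost without P14 replicate 1, P6 replicate 1 or P6 replicate 2 (changes of 0.78, 0.90 and 1.23, edgeR adjusted p = 0.26, 0.213 and 0.0906) and with library size alone (1.00, adjusted p = 0.0569).

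Between P14 and P28, 0 members rose and 7 fell (Plxna1, Plxna4, Plxnd1, Sema5a, Sema5b, Sema6a and Sema6d), against 4.05% and 4.81% of genes (8.86% in either direction). The median log2 change of the members was -0.53. At an unadjusted p under 0.05, the edgeR test had 2 members higher and 17 lower, and no share over all genes is given beside these counts. DESeq2 called 0 higher and 8 lower at the thresholds used for calls, against 703 and 1086 of all genes. The 2 that were higher at an unadjusted p were Sema3f, at 0.97 ± 0.0784, just under the fold threshold, and Sema6c, at 0.44 ± 0.108. The 7 that fell include the Sema6A receptor Plxna4 and the 2 class 5 ligands.

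**Figure D5:**
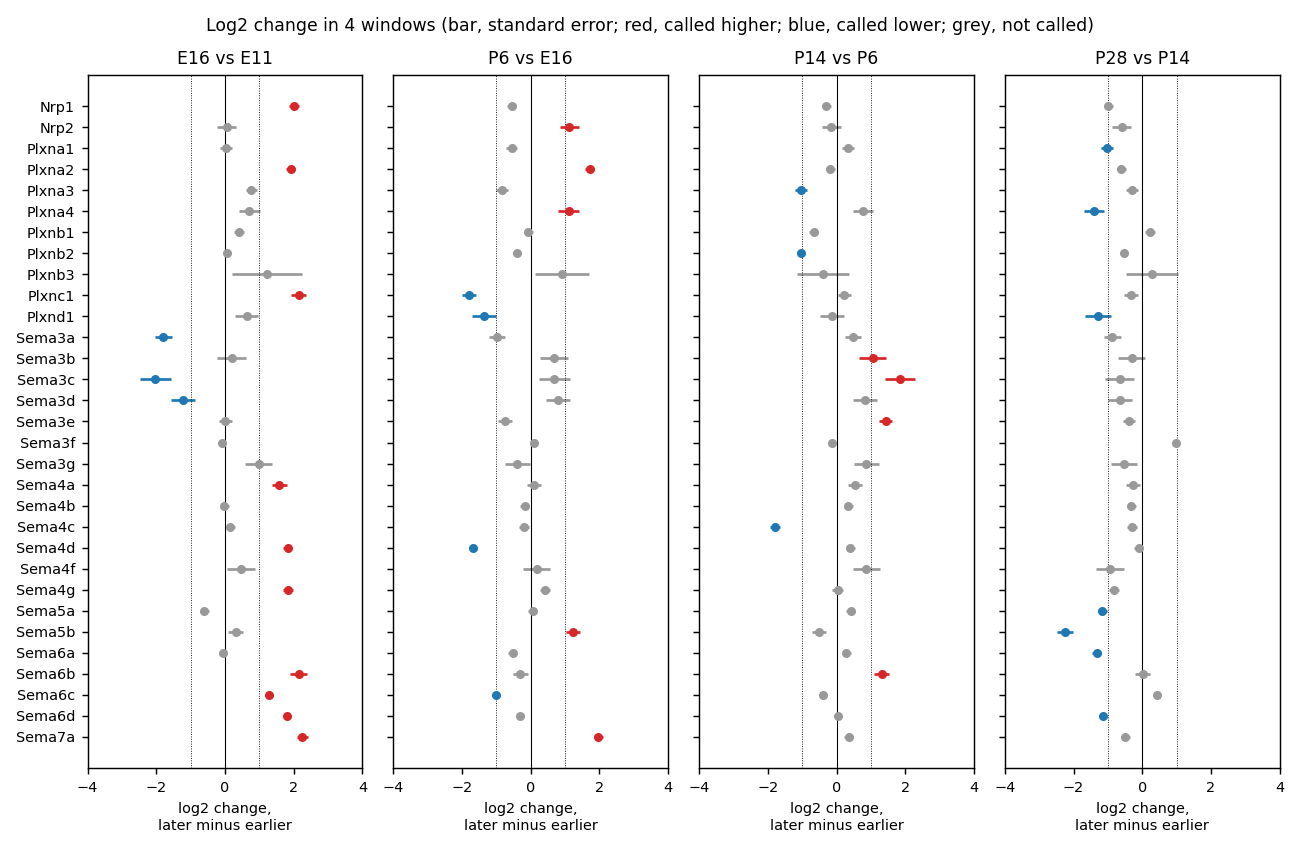
Log2 change of each member in 4 windows, later minus earlier, with its standard error, a dotted line at a 2-fold change and colour for calls. E16 vs E11 has 10 calls to the right and 3 to the left, and P28 vs P14 has 7 to the left and 0 to the right.

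Many courses had a local high at P14, about the age of eye opening. In 17 of 31 members both P14 libraries lay above every P10 and P21 library, against 16.7% of all genes. Sema5a, with 143 and 147 CPM at P14, 56.5 and 67.1 CPM at P21 and 77.7 and 63.4 CPM at P10, and Sema6a, with 83 and 74.9, 32 and 35, and 48.5 and 38.4 CPM at the same ages, are examples. In tests of these neighbouring stages, chosen after the values were seen, 2 members rose between P10 and P14 (Sema3b by 1.57 ± 0.402 and Sema5a by 1.03 ± 0.136), against 3.45% of genes, and 0 fell, against 1.08% (4.52% in either direction). The Sema3b call was lost without P10 replicate 1, P10 replicate 2 or P14 replicate 1 (changes of 1.46, 1.70 and 1.29) and with summed transcript estimates (0.50). The Sema5a call was lost with library size alone (0.94) and without P10 replicate 2 (0.90). At an unadjusted p under 0.05, edgeR had 15 members higher and 2 lower in that step, and no share over all genes is given beside these counts. DESeq2 called 3 higher and 0 lower, against 788 and 197 of all genes. The count of risers ran from 0 to 5 as libraries were left out in turn, with 0 without P10 replicate 2 and 5 without P10 replicate 1. Between P14 and P21, 9 fell and 1 rose, against 5.07% and 4.31% of genes (9.37% in either direction).

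Gene length moved with this pattern. Over all genes, the share with P14 above both neighbours was 9.10% where the longest transcript was under 2 kb, 14.7% from 2 to 4 kb, 24.9% from 4 to 6 kb and 37.7% at 6 kb and over. No member had a longest transcript under 2 kb, and the counts in the longer classes were 3 of 7, 5 of 9 and 9 of 15 members. Ganglion cell marker sums were also higher at P14 (1760 to 1820 CPM) than at P10 (1140 to 1160 CPM) and P21 (1220 to 1240 CPM). Amacrine sums were 1380 to 1410 CPM at P14, against 801 to 873 CPM at P10 and 1270 to 1310 CPM at P21. Bipolar sums were 1910 to 2000, 1540 to 1660 and 1290 to 1440 CPM in the same order. Endothelial, pericyte and mesenchyme sums were highest at P14 of these ages too. Rod, Müller glia, red cell, astrocyte, microglia, lens and pigment epithelium sums did not have this high in both libraries. The part of gene length or of any cell type in the P14 highs was not tested.

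Other genes of the pathway, from lists drawn up for this purpose, are described next. Of 16 co-receptors and membrane partners, 7 rose and 1 fell between E11 and E16, against 13.6% and 9.11% of all genes tested. Those that rose most were Cntn2, an axonal adhesion molecule, with 320 ± 50.9 CPM at E16 against 8.19 ± 0.0815 CPM at E11, and the adhesion molecules Chl1, by 6.21 ± 0.364, and L1cam, by 3.18 ± 0.241 on the log2 scale (edgeR adjusted p = 4.94e-11, 3.32e-10 and 9.92e-09). Between E16 and P6, 0 of the 16 rose and 5 fell, against 13.2% and 11.7% of genes, Cntn2 among them by 4.70. At an unadjusted p under 0.05, edgeR had 1 higher and 8 lower. No share over all genes is given beside this or the later counts at an unadjusted p in this list. Between P6 and P14, 4 rose and 0 fell (7 and 2 at an unadjusted p under 0.05, edgeR), against 15.7% of genes called in either direction, with Flt1, a Vegf receptor, at 71.2 ± 9.01 CPM against 14.6 ± 1.69 CPM. Between P14 and P28, 0 rose and 6 fell, against 4.05% and 4.81% of genes, with 0 higher and 10 lower at an unadjusted p under 0.05 in edgeR. The list's median log2 changes in the 4 windows were 0.36, -0.52, 0.42 and -0.80, largest in size between P14 and P28.

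Of 35 cytoplasmic genes known to act below plexins, 7 rose and 1 fell between E11 and E16. These 8 of 35 are near the 22.7% of all genes called in that window. The risers included Crmp1, which relays Sema3A signals, with 461 ± 16.9 CPM at E16 against 27.6 ± 11.6 CPM at E11, and Cdk5r1, the activator of the kinase Cdk5, with 159 ± 9.78 CPM against 7.06 ± 0.548 CPM. Over the next 3 windows 2 rose and 5 fell, 2 rose and 1 fell, and 1 rose and 4 fell, against 24.9%, 15.7% and 8.86% of all genes called in either direction, with medians of 0.42, -0.43, 0.04 and -0.36 over the 4 windows. The MICAL oxidases, actin regulators that bind plexins, diverged: Mical1 had 3.69 ± 1.06 CPM at P14 against 14.8 ± 0.768 CPM at P6, and Mical2 had 24 ± 0.0269 CPM against 8.93 ± 1.39 CPM (log2 changes -2.00 ± 0.214 and 1.43 ± 0.209, edgeR adjusted p = 1.42e-06 and 4.13e-05). Of 7 growth factors that bind neuropilins, Vegfa rose between E11 and E16 by 1.17 ± 0.165 and Hgf fell by 2.63. Hgf then rose in the next 2 windows by 4.16 ± 0.452 and 1.42 ± 0.317, with a mean of 4.58 ± 0.355 CPM at P14. Its means were 0.584 ± 0.243 CPM at E11 and 0.0911 ± 0.0414 CPM at E16, where 3 counts were 0.0902 and 0.0928 CPM. The Hgf changes to and from E16 thus rest on few counts. None of the 7 was called between P14 and P28 in edgeR, with 0 higher and 2 lower at an unadjusted p under 0.05. No share over all genes is given beside these unadjusted counts. The medians of the list were -0.58, -0.48, 0.18 and -0.17.

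In the authors' deposited table of genes that differ over the stages, 28 of the 31 members are listed, in 14 of its clusters, and Plxnb3, Sema4b and Sema4f are not in it. Cluster 9 of the authors' deposited table holds Plxna1, Plxna3, Plxnb2, Plxnd1, Sema4c, Sema5a and Sema6a. Cluster 33 of the same deposited table holds Nrp1, Sema4g, Sema5b and Sema6d, and cluster 16 holds Plxna2, Sema3e and Sema7a. Sema4b and Sema4f were also the least secure calls across all 12 stages here. Sema4b spanned just 2.01-fold between stage means, and its log2 range was under 1 with RLE size factors (0.99), the 1 CPM filter (0.98), DESeq2 (0.99) and without P4 replicate 1 (0.92). Sema4f missed the threshold on adjusted p without E12 replicate 2 (edgeR adjusted p = 0.0536) or P14 replicate 1 (0.0503).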

How the data were processed

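The authors deposited estimated counts per Ensembl gene and per transcript for 24 libraries. The build GRCm38.p5 and the tools kallisto 0.42.4 and edgeR 3.13.9 are named per the submitters' processing notes, with no roles. The sources used here do not say how gene values were made from transcripts. The authors also deposited a table of adjusted p-values over stages with cluster numbers, and a CPM table that was not used here.

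Estimated counts were rounded. Genes passing filterByExpr (minimum count 10), 21858 of 45594, were scaled by TMM and tested with edgeR 4.0.16 (quasi-likelihood, all 24 libraries, 1 coefficient per stage, 12 residual degrees of freedom) in R 4.3.3. P-values were Benjamini-Hochberg adjusted over all genes tested. The 4 windows were E16 vs E11, P6 vs E16, P14 vs P6 and P28 vs P14; neighbouring windows share a stage. P14 vs P10 and P21 vs P14, and the count of genes with P14 above both, were added after seeing the data. TPM came from transcript estimates over annotated length.

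The members and gene lists were chosen with earlier results of these data known. Genes given in full were the 3 largest called rises and falls per window (mean of at least 3 CPM and no overlap between libraries), the highest CPM of each subfamily and known ligand-receptor sets; others are named to complete counts. Alternatives were other scalings, filters, DESeq2 1.42.0, summed transcripts, a replicate block, fewer stages in the fit, no fold threshold and leaving out each library. The fit was tested on simulated data.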

Additional observations from a re-analysis of the deposited data

How the results depend on the processing

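No called change reversed among the results recomputed. Below the fold threshold, directions did turn: without E11 replicate 1 the E16 vs E11 changes of Nrp2 and Sema3e were -0.48 and -0.36 (0.89 and 0.50 without replicate 2), against 0.05 and 0.01 with all libraries, and with summed transcript estimates Sema3f changed by 0.55 in P14 vs P6, against -0.12. Without a fold threshold, higher and lower calls over all genes were 4948 and 5066 (E16 vs E11), 4985 and 5309 (P6 vs E16), 4116 and 4162 (P14 vs P6), 2469 and 3146 (P28 vs P14), 2212 and 1878 (P14 vs P10) and 2837 and 3553 (P21 vs P14). Member calls became 12 lower (P6 vs E16), 9 higher and 5 lower (P14 vs P6), 2 and 13 (P28 vs P14), 11 and 1 (P14 vs P10) and 3 and 14 (P21 vs P14). This follows from the looser rule. With library size alone, P14 vs P10 had 353 genes lower and 1 member higher, and with summed transcript estimates P21 vs P14 had 0 members higher (Sema3f at 0.79); the cause was not tested. Library size alone moved the median of all genes by 0.15 on the log2 scale for E16 vs E11 and by at most 0.09 in size elsewhere.

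Leaving out 1 library at a time gave 16794 to 17424 genes and 29 to 31 members across all stages. For members, higher and lower calls ranged over 10 to 13 and 1 to 3 (E16 vs E11, the 1 without E11 replicate 2), 5 to 6 and 4 to 5 (P6 vs E16), 3 to 4 and 2 to 3 (P14 vs P6), 0 to 1 and 5 to 7 (P28 vs P14), 0 to 5 and 0 (P14 vs P10), and 1 and 6 to 8 (P21 vs P14). For all genes they ranged over 2623 to 3376 and 1543 to 2328, 2372 to 2646 and 2172 to 2430, 1770 to 1949 and 1030 to 1133, 503 to 709 and 730 to 934, 406 to 754 and 138 to 240, and 564 to 761 and 798 to 928, in the same order. In P28 vs P14, 503 genes were higher without P14 replicate 2 and 526 without P28 replicate 2, against 885. In P14 vs P10, 406 were higher and 138 lower without P10 replicate 2, against 754 and 235, and in P21 vs P14, 564 were higher without P14 replicate 2, against 941. The P14 high was shown by 17 to 19 members as P10, P14 or P21 libraries were left out, and by 13 with library size alone. Leaving out such a library can hardly lower this count, because the rule sets the lowest P14 library against the highest neighbour. Peak stages held for 29 to 31 members as libraries were left out; Plxnd1 moved from E16 to P2 in 4 settings. With summed transcript estimates 26 held, with Plxnb1 at E14, Plxnd1, Sema3b and Sema4a at P2 and Sema3f at P28.

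With the replicate number as a block, no member call changed, and P28 vs P14 had 867 genes higher and 1057 lower. Same-numbered libraries did not deviate together (r of -0.0568 to 0.127 over 66 stage pairs, 2 over 0.1). Whether they shared anything beyond a number cannot be told from this. With 2 libraries a stage, members at a few CPM (Sema3c, Sema3d, Sema3g) and Plxnb3 carry wide errors.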
